A study of Mus musculus with 6 samples.

Results

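Alternative last exons are exons with which some transcripts of a gene end while other transcripts of the same gene do not hold them. In tables of read counts per exonic part, a stretch of exon bounded by annotated exon edges, a part was taken as an alternative last exon when it touched no other part, was missing from at least some transcripts of its gene, and was the last part, in the direction of transcription, of every transcript that held it while those transcripts had parts upstream. Only genes that the tables do not join with an overlapping gene were used. The rule found 5922 alternative last exons among 368092 parts. They lay in 4493 genes, of which 3273 held 1, 1055 held 2 and 165 held 3 or more. Of the members, 2591 were internal ends, with further parts of the gene downstream, and 3331 were downstream-most ends. The rule used annotation alone and no read count.

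The groups were 3 libraries of podocytes labelled CD2BP2 Knockout (KO) and 3 of podocytes labelled Wildtype (WT), all on the C57BL/6 background, from which polyadenylated RNA was sequenced. The KO allele is a targeted one made in embryonic stem cells, with loxP sites of which the downstream one follows exon 3 of the gene, and an FLPO deleter strain was used to remove the neomycin cassette. The treatment text describes CD2BP2flox/flox MxCre+ mice 6 to 10 weeks old and littermate controls, both given 300 µg poly(I:C), and bone marrow macrophages made from them, which goes against the podocyte label; neither the Cre driver nor the age of the mice behind the podocyte libraries is given by the labels. The labels do not say whether replicates are separate mice or pools, so p-values here describe the spread between libraries, which may be technical.

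A last exon is defined by splicing at its upstream edge and by cleavage and polyadenylation inside it. An internal end is made when cleavage comes before the transcript is spliced onward, so the choice of a last exon sets a competition between a splice and a poly(A) site, and it can change the C-terminus of the protein as well as the 3′ untranslated region. CD2BP2 is a GYF domain protein bound to the U5 small nuclear ribonucleoprotein, which enters the spliceosome with U4 and U6. In podocytes, the epithelial cells that form the filtration slits of the kidney, slit diaphragm and actin genes are known for splice isoforms.

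The coding sequence at the branch point between ends is shown for 4 genes in which an end passed the test described next, since it shows what each choice does to the message. Lower case letters are the last 24 bases of the exon before the branch, and capitals are the first 45 coding bases of the exon that follows. The sequences are those of the listed transcripts in GENCODE M21 (GRCm38), read 5′ to 3′ on the transcript's strand. For the minus-strand gene Nectin2 the internal last exon lies at chr7:19724161-19724869, the exon that the longer transcript uses in its place at chr7:19721353-19721506, and the final exon of that longer transcript at chr7:19716644-19717787. For the minus-strand gene Kif1b the internal last exon lies at chr4:149233734-149238483 and the exon used in its place at chr4:149226263-149226356. On the plus strand, the internal last exon of Hbs1l lies at chr10:21309099-21311209 and the exon used in its place at chr10:21336976-21337075, and those of Map3k20 lie at chr2:72401989-72407502 and chr2:72410149-72410193.
Nectin2 internal end (part 5): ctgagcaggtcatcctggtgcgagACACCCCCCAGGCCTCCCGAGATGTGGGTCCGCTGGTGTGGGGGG
Nectin2 continuing transcript: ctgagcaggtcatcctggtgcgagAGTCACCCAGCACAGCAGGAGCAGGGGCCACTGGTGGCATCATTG
Nectin2 downstream-most end (part 1): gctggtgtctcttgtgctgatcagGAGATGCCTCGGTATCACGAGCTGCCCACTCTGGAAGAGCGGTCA
Kif1b internal end (part 41): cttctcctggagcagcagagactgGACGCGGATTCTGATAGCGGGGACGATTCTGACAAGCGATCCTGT
Kif1b continuing transcript: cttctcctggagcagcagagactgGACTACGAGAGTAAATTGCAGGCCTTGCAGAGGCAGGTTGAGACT
Hbs1l internal end (part 5): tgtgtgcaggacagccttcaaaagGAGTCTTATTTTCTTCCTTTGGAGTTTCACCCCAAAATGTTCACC
Hbs1l continuing transcript: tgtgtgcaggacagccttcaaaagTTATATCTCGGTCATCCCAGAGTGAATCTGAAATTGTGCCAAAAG
Map3k20 internal end (part 21): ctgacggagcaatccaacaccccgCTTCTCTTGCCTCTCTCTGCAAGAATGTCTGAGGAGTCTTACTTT
Map3k20 continuing transcript: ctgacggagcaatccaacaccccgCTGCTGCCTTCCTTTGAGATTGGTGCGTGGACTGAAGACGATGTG
In the pairs that share a branch point, an internal end and its continuing transcript, the lower case stretch is shared and the capitals differ, so the alternative ends give different coding sequence from there on. The remaining Nectin2 line is the junction into the final exon of the longer transcript. The signal hexamers AATAAA or ATTAAA, searched on the transcript strand in the last 40 bases, were found in 61.6% of 5862 annotated transcripts that end in an alternative last exon, against 32.6% of all 141704 annotated transcripts and 48.7% of the 58791 protein-coding ones. The share was 48.1% for transcripts of the internal ends tested and 73.7% for those of the downstream-most ends tested. Among the 19 transcripts of members past the test that had an entry, 12 held a hexamer.

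The total part count per library was 186022084 to 255554573. Cd2bp2 stood at 49.2, 48.3 and 52.5 CPM (reads of a gene scaled to library size) in KO and at 59.9 CPM in each of WT1, WT2 and WT3, a log2 fold change of -0.32 (SE 0.05, edgeR adjusted p = 0.0297; past the test without KO3 only, and 0.0606 to 0.146 without each other library), so its transcript was lower in KO but still present. Over all genes 666 of 19742 passed (3.37%), 1.62% upward and 1.76% downward. The 8 podocyte markers summed to 19397 to 21042 CPM in KO and 20976 to 23204 CPM in WT. Of these, Nphs1 fell past the test, and 5 had an unadjusted p under 0.05 with edgeR, with changes of both signs. The libraries also held 6504 to 6969 CPM of 8 endothelial markers in KO and 6864 to 7176 CPM in WT, and 2459 to 2985 CPM of 7 mesangial and smooth muscle markers in KO and 2494 to 2809 CPM in WT, and none of these passed with edgeR (1 and 0 at an unadjusted p under 0.05). The 9 macrophage and myeloid markers summed to 194 to 218 CPM in KO and 94.7 to 127 CPM in WT. Of these, 4 rose past the test and 8 had an unadjusted p under 0.05 (median log2 fold change 0.82). The 10 markers of loop, distal tubule and duct segments summed to 268 to 1422 CPM in KO and 171 to 328 CPM in WT. Of these, Avpr2 rose past the test and 7 had an unadjusted p under 0.05 (median log2 fold change 1.59). The library KO2 stood apart there, with Umod at 604 CPM in KO2, against 224 and 90.8 CPM in KO1 and KO3. The 10 proximal tubule markers summed to 849 to 1267 CPM in KO and 464 to 967 CPM in WT. Of these, 2 rose past the test and 5 had an unadjusted p under 0.05 (median log2 fold change 0.53). The 6 parietal epithelial markers summed to 95.2 to 129 CPM in KO and 55.1 to 72.4 CPM in WT. Of these, 1 rose past the test and 3 had an unadjusted p under 0.05 (median log2 fold change 0.70). The 9 lymphocyte markers, none past the test (4 at an unadjusted p under 0.05), summed to 39.8 to 66.7 CPM in KO and 22.5 to 40.8 CPM in WT. Nphs1, Avpr2 and the myeloid genes Spi1, Tyrobp and Ctss passed in 0 of the 6 fits that leave out a library. Lyz2, the other myeloid gene that rose past the test, passed in 5. None of these markers was at 0 in all libraries, and their part in the changes of usage below was not tested. In bulk libraries a change in the share of a cell type and a change in RNA per cell cannot be told apart.

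The usage of a part is its count as a percentage of the gene's sum over all parts, so that within a gene a lower share of some parts goes with a higher share of others. Enough reads for a test were found for 3333 members in 2821 genes, 1135 of them internal and 2198 downstream-most. Of the other 2589, 782 had no read in any library. The 2 kinds of end sat at different levels in WT. A tested internal end held a median of 0.761% of its gene's reads (quartiles 0.223% and 4.36%), against 22.1% (quartiles 9.07% and 41.1%) for a downstream-most end. Per base, with the parts present in every transcript of the gene set to 100%, the median density in WT was 15.3% for 519 internal and 50.9% for 1527 downstream-most ends of genes that have such parts. Annotated coding sequence reached into 32.3% of the internal and 77.9% of the downstream-most ends tested. Of all members, 5193 were annotated in 1 transcript only and 487 shared bases with another gene. The counts were treated as unstranded, so reads of an overlapping gene cannot be told apart from those of the end.

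The comparison of KO with WT asked whether podocytes labelled as lacking the U5 protein end their transcripts in other exons. Usage differed in 20 alternative last exons of 19 genes, 9 higher (against 0.0654% of all parts) and 11 lower (against 0.0553%) in KO (edgeR quasi-likelihood test with the gene sum as offset, Benjamini-Hochberg adjusted p under 0.05 over all 218768 parts tested). That is 0.600% of the members tested, against 0.121% of all parts. Among 3660 alternative first exons, defined by the mirrored rule, 13 passed (0.355%), and among 58443 parts present in every transcript 25 passed (0.0428%). No test set these shares against each other. The members past the test were 10 internal ends, 4 of them higher, and 10 downstream-most ends, 5 of them higher. In 4 the change was at least 1 on the log2 scale, and in 16 it was smaller. At an unadjusted p under 0.05 there were 372 members, or 11.2%, against 5.74% of all parts.

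**Figure D1:**
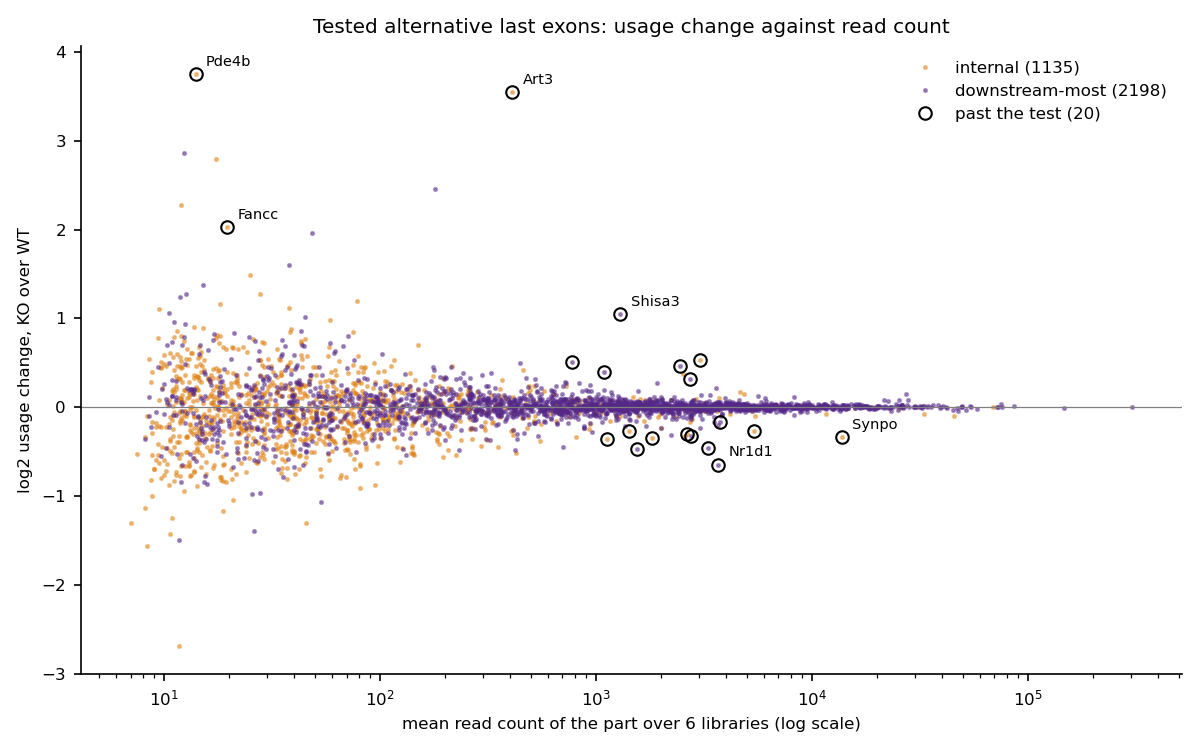
Log2 change of usage, KO over WT (vertical axis), against the mean read count of the part over the 6 libraries (log horizontal axis) for the 1135 internal and 2198 downstream-most ends tested, with the 20 past the test circled. Pde4b, Art3, Fancc and Shisa3 lie above 1, and the other circled ends lie within 1 of 0.

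The call rests on the test used. With diffSpliceDGE, which compares a part with the rest of its gene, 4 members passed (0.0448% of all parts), among them 2 of the 20, Shisa3 part 5 and Art3 part 6, and 9 of the 20 passed with limma-voom diffSplice, which called 23 members (0.144% of all parts). DESeq2 called 34 members (0.234% of all parts). With the parts present in every transcript as denominator, 11 of the 20 had a value and 4 of these passed. The ends of Hbs1l, Zbtb8os, Nr1d1, Bmp2k, H2-Q4 and H2-Q6 and Nectin2 part 5 did not pass there (edgeR adjusted p = 0.0543 to 0.527). All 6 fits that leave out a library called Shisa3 part 5, Nectin2 parts 1 and 5, Synpo part 14, Art3 part 6, H2-Q6 part 14 and E130308A19Rik part 9. Usage did not overlap between the groups in any of the 20, nor in 470 members in all, or 14.1% of those tested, against 11% of all parts. Of the 19 genes, 2 also passed at the gene level, Map3k20 and E130308A19Rik, both lower in KO. Over all genes 666 of 19742 passed (3.37%). An overlap with another gene was annotated for 6 of the 20, and for 389 of the 3333 members tested. Annotated coding sequence reached into 11 of the 20, against 62.4% of the members tested. The transcripts of Shisa3 part 5, Zbtb8os part 15 and Pde4b part 22 are annotated for nonsense-mediated decay. Those of Synpo part 14, Art3 part 6, Serpinb6a part 35 and Fancc part 15 are annotated as non-coding.

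**Figure D2:**
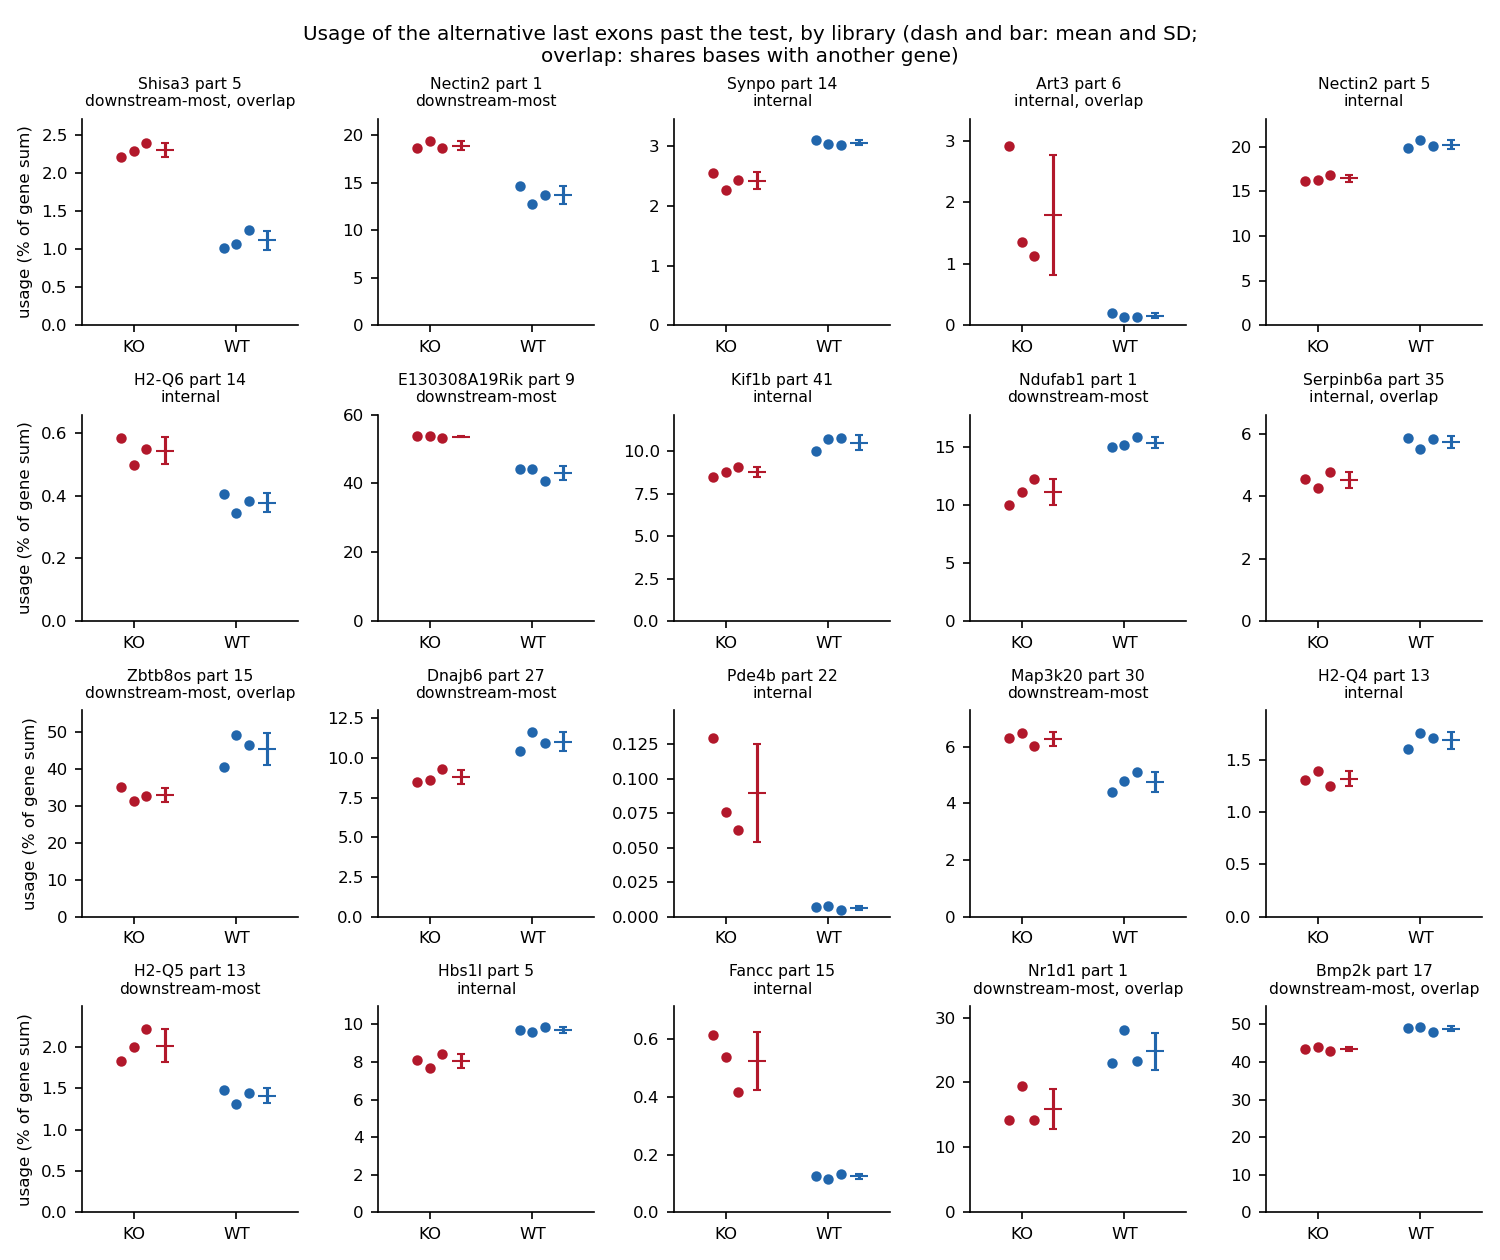
Usage in percent of the gene sum (vertical axes start at 0) for the 20 alternative last exons past the test in the 3 KO (left, red) and 3 WT (right, blue) libraries, with mean and SD. The groups do not overlap in any panel, and the KO library that stands apart in Art3, at 2.91%, is KO1.

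As a class, the ends did not move one way. The median log2 change was -0.03 for the internal and 0.01 for the downstream-most ends tested, against -0.03 for alternative first exons and 0.00 for all parts. Against the WT mean, the median of the internal ends was -0.02, -0.19 and 0.06 in the KO libraries numbered 1, 2 and 3, and 0.01, -0.02 and 0.00 in the WT libraries. KO2 was thus the lowest library, while KO1 and KO3 lay on either side of 0. The median size of the change was 0.198 for internal and 0.0430 for downstream-most ends, with a median part count of 47.3 and 897. The density of the last over that of the first part of 2008 genes with 1 transcript, a measure of 3′ coverage, had medians on the log2 scale of 0.376, 0.403 and 0.374 in KO and 0.426, 0.339 and 0.343 in WT, so the groups overlapped.

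**Figure D3:**
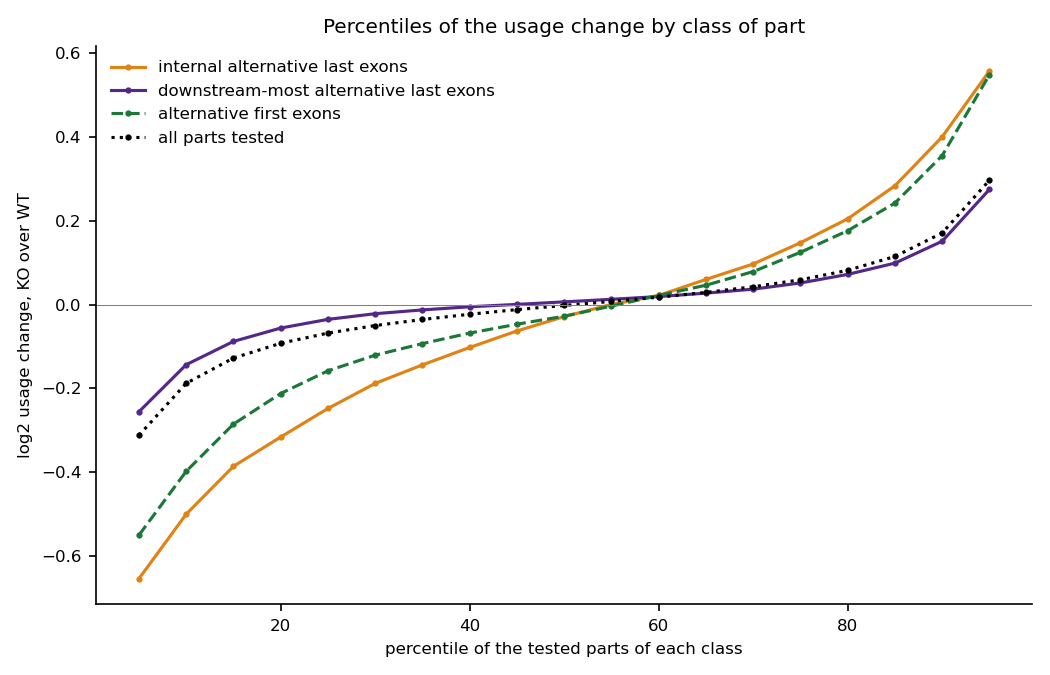
Percentiles of the log2 change of usage, KO over WT (vertical axis), for internal and downstream-most alternative last exons, alternative first exons and all parts tested (lines). The internal ends reach from -0.65 at the 5th to 0.56 at the 95th percentile, and the downstream-most ends from -0.26 to 0.28.

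In Nectin2, which encodes a cell adhesion molecule of the nectin family with membrane-bound isoforms that differ at the C-terminus, the 2 ends moved in opposite directions. The internal end, part 5 (ENSMUSG00000062300; NCBIM37 chr7:20309514-20310218, minus strand), held 16.1%, 16.3% and 16.8% of the gene's reads in KO1, KO2 and KO3, against 19.8%, 20.8% and 20.1% in WT1, WT2 and WT3. Its mean was 16.4 ± 0.374% in KO and 20.2 ± 0.503% in WT (SD, n = 3 each), a log2 change of -0.30 (SE 0.03, edgeR adjusted p = 0.00278). The downstream-most end, part 1 (chr7:20301993-20303136), held 18.7%, 19.4% and 18.7% in KO, against 14.7%, 12.8% and 13.7% in WT. The groups did not overlap at either end. Part 1 averaged 18.9 ± 0.432% in KO and 13.7 ± 0.973% in WT (SD, n = 3 each; log2 change 0.46, SE 0.04, edgeR adjusted p = 0.00123). Per base, with the 5 exons common to both transcripts at 100%, part 5 stood at 54.8 ± 1.30% in KO and 63.2 ± 0.532% in WT, and part 1 at 38.9 ± 1.30% in KO and 26.5 ± 2.29% in WT (SD, n = 3 each), so the densities of the ends lay closer together in KO. The 3 exons that only the longer transcript uses, parts 4, 3 and 2, had log2 changes of 0.34, 0.33 and 0.38 and did not pass (adjusted p = 0.161, 0.185 and 0.0600). The gene as a whole was at 70.3, 73.0 and 73.8 CPM in KO and at 60.8, 57.1 and 66.1 CPM in WT, a difference that did not pass (log2 fold change 0.18, edgeR adjusted p = 0.149). With the common exons as denominator the change of part 5 was -0.21 and did not pass.

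In Kif1b, a kinesin motor gene, the internal end closes the shorter motor isoform, which is known for moving mitochondria, while the longer one carries synaptic vesicle precursors. This end, part 41 (ENSMUSG00000063077; NCBIM37 chr4:148607843-148612592, minus strand), held 8.47%, 8.76% and 9.08% in KO, against 10.0%, 10.7% and 10.8% in WT. All KO libraries lay below all WT libraries. The log2 change was -0.26 (SE 0.03, edgeR adjusted p = 0.00809), with means of 8.77 ± 0.306% in KO and 10.5 ± 0.419% in WT (SD, n = 3 each). The last exon of the longer transcripts, part 1, changed by 0.09 and did not pass (adjusted p = 0.493). Without KO1 or WT2 the change of part 41 was -0.24 or -0.25 and did not pass (adjusted p = 0.0644 and 0.0753).

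Hbs1l encodes a translational GTPase that frees stalled ribosomes, and its short form, which ends in an internal exon, is known in human cells as a partner of the cytoplasmic RNA exosome. That internal end, part 5 (ENSMUSG00000019977; NCBIM37 chr10:21028905-21031004, plus strand), held 8.08%, 7.69% and 8.42% in KO, against 9.69%, 9.57% and 9.86% in WT. The groups did not overlap, and the means were 8.07 ± 0.367% in KO and 9.70 ± 0.149% in WT (SD, n = 3 each; log2 change -0.27, SE 0.04, edgeR adjusted p = 0.0321). The downstream-most end, part 19, held 10.5%, 10.4% and 10.5% in KO and 9.52%, 10.2% and 10.3% in WT and did not pass (log2 change 0.07, adjusted p = 0.933). With single libraries removed, part 5 passed without KO3 and otherwise did not, with adjusted p = 0.160 without KO1, 0.0819 without KO2, 0.0930 without WT1, 0.142 without WT2 and 0.132 without WT3. In GENCODE M21 another transcript ends at chr10:21309743-21311206 (GRCm38), within this internal exon, with 2 coding bases after the same branch point. Its reads were not told apart from those of the transcript shown above.

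Map3k20 encodes the stress kinase ZAK, whose isoforms share the kinase domain and differ in the region after it. Here the share of the downstream-most end rose. Part 30 (ENSMUSG00000004085; NCBIM37 chr2:72279289-72280667, plus strand) held 6.31%, 6.50% and 6.02% in KO, against 4.40%, 4.77% and 5.09% in WT (log2 change 0.40, SE 0.05, edgeR adjusted p = 0.0132). Parts 24 to 29, the exons that lead to this end, had log2 changes of 0.42 to 0.49 but did not pass by themselves. The internal end, part 21, holds most of the gene's reads, with 56.0%, 54.8% and 58.4% in KO and 60.4%, 58.7% and 58.6% in WT (log2 change -0.07, adjusted p = 0.705). Per base, relative to the parts in every transcript, part 30 stood at 21.6 ± 0.0586% in KO and 15.7 ± 0.923% in WT, and part 21 at 48.7 ± 3.52% in KO and 49.0 ± 2.07% in WT (SD, n = 3 each). The gene itself fell to 84.4, 78.2 and 78.2 CPM in KO, against 110, 108 and 96.4 CPM in WT (log2 fold change -0.45, SE 0.07, edgeR adjusted p = 0.0342). Part 30 did not pass without KO1 or WT2 (adjusted p = 0.0908 and 0.0948), and the fall of the gene passed without WT3 only (adjusted p = 0.0668 without KO3 to 0.150 without WT2 in the other fits that leave out a library).

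**Figure D4:**
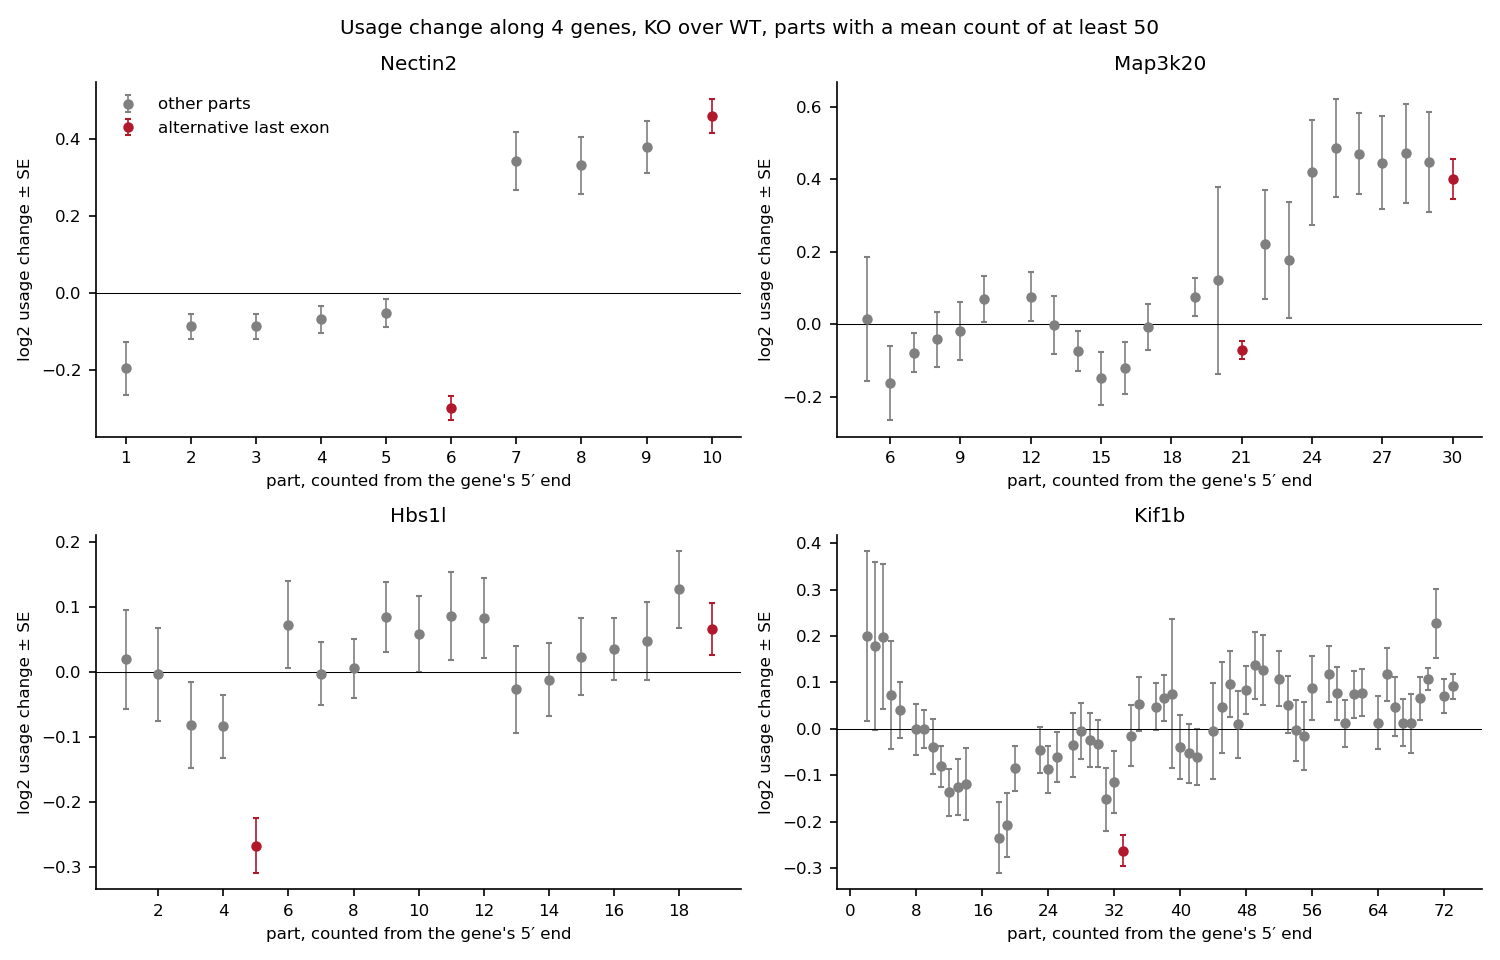
Log2 change of usage, KO over WT, with SE (vertical axes) for the parts of Nectin2, Map3k20, Hbs1l and Kif1b with a mean count of at least 50, in order from the 5′ end of the gene (horizontal axes), with alternative last exons in red. In Nectin2 the internal end lies at -0.30 and the downstream-most end at 0.46, and in Map3k20 the parts that lead to the downstream-most end lie above 0.

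Among downstream-most ends past the test without annotated overlap, usage rose for Nectin2 part 1, Map3k20 part 30, H2-Q5 part 13 and E130308A19Rik part 9. It fell for the ends of Dnajb6 and Ndufab1. E130308A19Rik, a gene named after a RIKEN clone, has a last exon of 9207 bases (ENSMUSG00000045071; NCBIM37 chr4:59765105-59774311, plus strand), which held 53.8%, 53.8% and 53.3% in KO, against 44.2%, 44.2% and 40.6% in WT. The log2 change was 0.32 (SE 0.04, edgeR adjusted p = 0.00345). The change was 0.61 with its own reads taken out of the gene sum and 0.57 against the parts present in every transcript. Parts 6 and 7, upstream of it, fell by 0.53 and 0.56 (adjusted p = 0.00673 and 0.00915), and the gene fell to a mean of 22.8 ± 2.32 CPM in KO, against 29.8 ± 1.21 CPM in WT (SD, n = 3 each; log2 fold change -0.45, edgeR adjusted p = 0.0466). The fall of the gene passed without KO3 only (adjusted p = 0.0702 without WT3 to 0.187 without WT2 in the other such fits), and that of part 7 did not pass without KO1 or WT3 (0.0726 and 0.0525).

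Dnajb6 encodes a DNAJ co-chaperone, which in human cells has a longer nuclear and a shorter, mostly cytosolic isoform. Its downstream-most end, part 27 (ENSMUSG00000029131; NCBIM37 chr5:30111571-30113018, plus strand), which belongs to the longer transcript, held 8.49%, 8.62% and 9.29% in KO, against 10.5%, 11.7% and 10.96% in WT. All KO libraries lay below all WT libraries (log2 change -0.33, SE 0.04, edgeR adjusted p = 0.0107). Parts 23 and 24, upstream of it, had changes of 0.16 and 0.14 and did not pass (adjusted p = 0.142 and 0.183). Part 27 did not pass without KO1 or WT2 (adjusted p = 0.0881 and 0.0716).

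Ndufab1 encodes the mitochondrial acyl carrier protein, a subunit of respiratory complex I. Its downstream-most end, part 1 (ENSMUSG00000030869; NCBIM37 chr7:129228917-129231852, minus strand), held 9.99%, 11.1% and 12.3% in KO, against 15.0%, 15.2% and 15.9% in WT. The means were 11.1 ± 1.13% in KO and 15.3 ± 0.470% in WT (SD, n = 3 each; log2 change -0.47, SE 0.06, edgeR adjusted p = 0.00839), and the groups did not overlap. Without WT2 or WT3 it did not pass (adjusted p = 0.0614 and 0.0514). Another end of the gene, part 15, held 0.147% in KO and 0.163% in WT on average and did not pass.

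Synpo, which encodes the actin-associated podocyte protein synaptopodin, was the only gene of the gene lists used here with an end past the test. Part 14 (ENSMUSG00000043079; NCBIM37 chr18:60765537-60766678, minus strand) is an internal end of a transcript annotated as non-coding. It held 2.56%, 2.27% and 2.44% in KO, against 3.10%, 3.05% and 3.03% in WT. The KO libraries were all lower, and the log2 change was -0.33 (SE 0.03, edgeR adjusted p = 0.00162). The gene stood at 2158, 1755 and 2056 CPM in KO and at 2693, 2783 and 2373 CPM in WT (log2 fold change -0.46, edgeR adjusted p = 0.0712). With limma-voom diffSplice the end did not pass (adjusted p = 1.00).

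The next 6 ends share bases with another gene, and the level of that gene is given beside each. Art3, which encodes an ADP-ribosyltransferase family member, showed the largest rise of the 6. Its internal end, part 6 (ENSMUSG00000034842; NCBIM37 chr5:92774138-92775796, plus strand), had 1395, 516 and 381 reads in KO, against 71, 48 and 49 in WT. Usage was 2.91%, 1.34% and 1.12% in KO and 0.199%, 0.132% and 0.138% in WT (log2 change 3.54, SE 0.37, edgeR adjusted p = 0.00223). Of its 1659 bases, 133 lie opposite Cxcl10, a chemokine gene, and the reads covered from 34.8% to 79.0% of the part in KO and from 16.9% to 36.6% in WT. Cxcl10 itself stood at 77.9, 36.9 and 26.0 CPM in KO and at 5.33, 3.11 and 3.62 CPM in WT, a log2 fold change of 3.49 (edgeR adjusted p = 0.0260), which did not pass without KO2 (0.0648), WT1 (0.0787), WT2 (0.121) or WT3 (0.0650). The order of the KO libraries was the same for both. The part of Cxcl10 reads in the Art3 value was not tested.

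Shisa3 encodes a transmembrane protein of the Shisa family. Its downstream-most end, part 5 (ENSMUSG00000050010; NCBIM37 chr5:68013875-68014791, plus strand), had the smallest p of all ends. It held 2.21%, 2.29% and 2.39% in KO, against 1.02%, 1.07% and 1.25% in WT (log2 change 1.05, SE 0.06, edgeR adjusted p = 2.2e-05). Part 4, the exon before it, rose as well, by 0.90 (adjusted p = 0.000828), while the internal end, part 3, held 83.7% in KO and 83.6% in WT on average. The gene as a whole stood at 298, 247 and 278 CPM in KO and at 594, 561 and 366 CPM in WT (log2 fold change -0.95, edgeR adjusted p = 0.0519). Atp8a1 shares 61 of the 917 bases on the other strand and changed by -0.20 without passing (adjusted p = 0.166).

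Zbtb8os encodes archease, a cofactor of tRNA ligation. Its end, part 15 (ENSMUSG00000057572; NCBIM37 chr4:129031485-129031791, plus strand), held 35.0%, 31.1% and 32.7% in KO, against 40.4%, 49.0% and 46.5% in WT (log2 change -0.46, SE 0.06, edgeR adjusted p = 0.00908). The change was -0.76 with its own reads taken out of the gene sum, and -0.85 and not past the test (adjusted p = 0.123) against the parts present in every transcript. Per base, with those parts at 100%, the end stood at 90.9 ± 20.1% in KO and 164 ± 18.6% in WT (SD, n = 3 each). Of its 307 bases, 264 lie opposite Zbtb8a, which fell by 0.44 on the log2 scale (edgeR adjusted p = 0.0476; 0.0702 without WT3 to 0.127 without WT2 over the 6 fits with 1 library fewer). Part 5 of Zbtb8os rose by 0.39 (adjusted p = 0.0103; 0.0690 without KO1 and 0.0831 without WT2). The end did not pass without WT2 or WT3 (adjusted p = 0.0610 and 0.0520).

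Serpinb6a encodes an intracellular serine protease inhibitor. Its internal end, part 35 (ENSMUSG00000060147; NCBIM37 chr13:34078357-34079118, minus strand), lies opposite Nqo2 with all 762 bases. It held 4.55%, 4.26% and 4.78% in KO, against 5.87%, 5.53% and 5.83% in WT (log2 change -0.34, SE 0.04, edgeR adjusted p = 0.00908), and Nqo2 changed by -0.20 without passing (adjusted p = 0.0653). The end did not pass without KO1 or WT3 (adjusted p = 0.0639 and 0.0517).

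Nr1d1 encodes the circadian repressor Rev-erb alpha and ends opposite Thra, a thyroid hormone receptor gene, in an arrangement known in mammals. Part 1 (ENSMUSG00000020889; NCBIM37 chr11:98629246-98629733, minus strand), of whose 488 bases 263 lie opposite Thra, held 14.2%, 19.5% and 14.2% in KO, against 23.0%, 28.1% and 23.3% in WT (log2 change -0.65, SE 0.10, edgeR adjusted p = 0.0376). Thra changed by -0.02 (adjusted p = 0.817), while Nr1d1 stood at 144, 82.7 and 140 CPM in KO and at 58.1, 50.7 and 67.8 CPM in WT (log2 fold change 0.99, edgeR adjusted p = 0.0675). The share of KO2, where the gene was lowest among KO libraries, was the highest of the KO shares. Per base, with the parts present in every transcript at 100%, the end stood at 66.8 ± 14.7% in KO and 124 ± 19.4% in WT (SD, n = 3 each). The end passed without KO2 and in no other fit with a library left out (adjusted p = 0.205 without KO1, 0.0730 without KO3, 0.0713 without WT1, 0.227 without WT2 and 0.0846 without WT3).

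Bmp2k encodes a kinase of the endocytic AAK1 family. Its downstream-most end, part 17 (ENSMUSG00000034663; NCBIM37 chr5:97515762-97520886, plus strand), held 43.5%, 44.1% and 43.0% in KO, against 49.0%, 49.4% and 48.0% in WT (log2 change -0.16, SE 0.03, edgeR adjusted p = 0.0382; -0.31 with its own reads taken out of the gene sum). Part 15, upstream of it, rose by 0.56 (adjusted p = 0.00345). Paqr3, which encodes a Golgi membrane protein, ends internally within the same bases on the other strand, and its part 2 shares all 1185 bases with Bmp2k. That end held 59.1%, 62.9% and 61.1% of the Paqr3 reads in KO and 66.9%, 66.3% and 69.4% in WT and did not pass (log2 change -0.15, adjusted p = 0.467), while with its own reads taken out of the gene sum it did (-0.41, adjusted p = 0.0387). The 2 values come from shared bases and cannot be told apart. The Bmp2k end passed in no fit with a library left out, with adjusted p = 0.205, 0.0627 and 0.0992 without KO1, KO2 and KO3 and 0.105, 0.234 and 0.0725 without WT1, WT2 and WT3.

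The class I histocompatibility genes H2-Q6, H2-Q4 and H2-Q5 each had an end past the test, of 26, 15 and 52 bases. These genes of the Q region belong to the antigen-presenting class I family and are near-identical copies, so how the counting divided reads between them is uncertain. The transcript with the H2-Q5 end is annotated as a polymorphic pseudogene in GENCODE M21, and that with the H2-Q6 end was matched to no entry there. The last exons of the H2-Q4 and H2-Q5 transcripts are 425 and 110 bases long in M21. The parts tested are shorter, and the signal hexamers were searched at the M21 ends. H2-Q6 part 14 held 0.584%, 0.499% and 0.552% in KO, against 0.406%, 0.345% and 0.383% in WT (log2 change 0.54, edgeR adjusted p = 0.00345). H2-Q5 part 13 averaged 2.02% in KO and 1.41% in WT (log2 change 0.51, adjusted p = 0.0205), and H2-Q4 part 13 averaged 1.32% in KO and 1.69% in WT (log2 change -0.36, adjusted p = 0.0201). The ends of H2-Q6 and H2-Q5 thus rose and that of H2-Q4 fell. KO1 stood apart in the level of all 3 genes, with H2-Q6 at 4728 CPM in KO1, against 1786 and 1544 CPM in KO2 and KO3, H2-Q4 at 794, against 222 and 289 CPM, and H2-Q5 at 314, against 132 and 187 CPM. Against the parts present in every transcript the change of the H2-Q4 end was -0.63. H2-Q4 did not pass without KO1 (adjusted p = 0.166), WT2 (0.149) or WT3 (0.0785), nor H2-Q5 without WT1 (0.0525), WT2 (0.149) or WT3 (0.0694).

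Internal ends of Pde4b and Fancc rose at low counts. Part 22 of Pde4b, which encodes a cyclic AMP phosphodiesterase (ENSMUSG00000028525; NCBIM37 chr4:102228570-102230202, plus strand), had 38, 16 and 24 reads in KO, against 2, 2 and 2 in WT. All KO libraries were above all WT libraries, and the pooled ratio of usage was 14.1, with a 95% interval of 6.22 to 39.7 that covers counting error only (edgeR adjusted p = 0.0115). Part 36 of the gene, no alternative last exon, also rose, with mean shares of 2.18% in KO and 1.01% in WT (log2 change 1.15, adjusted p = 0.00373), as did part 15 (log2 change 2.93, adjusted p = 0.0168; past the test without KO2 or WT1, and 0.0516 to 0.0962 without any other library). A second internal end, part 20, had 46, 22 and 22 reads in KO and 5, 5 and 4 in WT and did not pass (adjusted p = 0.0505). Part 22 did not pass without KO1 (adjusted p = 0.0690), WT1 (0.0540), WT2 (0.0792) or WT3 (0.0846). Part 15 of Fancc, a gene of the Fanconi anaemia DNA repair complex (ENSMUSG00000021461; NCBIM37 chr13:63422607-63422970, minus strand), had 33, 32 and 31 reads in KO, against 6, 6 and 10 in WT, a pooled ratio of 4.08 with a 95% interval of 2.55 to 6.82 (edgeR adjusted p = 0.0329). Its only transcript is annotated in GENCODE M21 without a known 3′ end, as are those of 79 of the 5922 members, so the annotation does not show that transcripts end there. It passed without KO3 and in no other fit with a library left out (adjusted p = 0.169 without KO1, 0.0795 without KO2, 0.110 without WT1, 0.192 without WT2 and 0.140 without WT3).

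The lists of splicing, polyadenylation, podocyte and actin genes held few alternative last exons, with 4 to 14 tested per list. Over all parts 0.121% passed and 5.74% had an unadjusted p under 0.05. None of 7 tested in cleavage and polyadenylation factors passed with edgeR (1 at an unadjusted p under 0.05), nor of 4 in U1 snRNP and elongation factors that act on intronic polyadenylation (1), of 8 in U5 and tri-snRNP genes (1), of 6 in SR proteins, hnRNPs and kinases (2), of 14 in actin genes (0) or of 9 in genes known for alternative last exons (0). Among 7 of slit diaphragm and podocyte identity genes that of Synpo passed. The smallest p of these lists otherwise was that of Cdk12, a kinase of transcription elongation that restrains intronic polyadenylation. Its downstream-most end, part 34, belongs to a transcript annotated as non-coding. This end held 6.21%, 6.47% and 5.90% in KO, against 5.31%, 5.08% and 5.25% in WT, groups that did not overlap, and did not pass (log2 change 0.25, SE 0.05, edgeR adjusted p = 0.101). Ppih, a tri-snRNP cyclophilin, had an internal end with 14.0%, 13.8% and 12.4% in KO and 12.2%, 11.1% and 11.1% in WT (log2 change 0.22, adjusted p = 0.782). Scaf8, a factor that acts against early termination, had an internal end with a mean of 0.464% in KO and 0.310% in WT (log2 change 0.57, adjusted p = 0.771). Last exons of Qk give nuclear and cytoplasmic forms of the RNA-binding protein quaking. Its downstream-most end belongs to a transcript annotated for nonsense-mediated decay. That end held 27.4%, 28.5% and 24.2% in KO, against 24.2%, 25.3% and 22.4% in WT, so the groups overlapped. The means were 26.7% in KO and 24% in WT, and the end did not pass (log2 change 0.15, edgeR adjusted p = 0.649). Without KO3 the change was 0.22 (edgeR adjusted p = 0.0482). The ends of Ssu72, Rtf1, Lsm4, Ewsr1, Arhgef2, Tpm3 and Zc3hav1 had log2 changes of 0.09, 0.04, -0.06, -0.11, -0.56, -0.40 and -0.05 and did not pass, with adjusted p from 0.855 to 0.973.

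Large differences in share that did not pass were those of Bid, Iyd, Tmc7, Spata1 and the Paqr3 end described above. In Iyd, which encodes iodotyrosine deiodinase, the downstream-most end held 31.1%, 29.3% and 29.9% in KO, against 35.3% to 38.5% in WT. The groups did not overlap (log2 change -0.30, SE 0.07, edgeR adjusted p = 0.179), and with its own reads taken out of the gene sum the end passed (-0.46, adjusted p = 0.0418). The Bid end averaged 44.2 ± 7.16% in KO and 51.8 ± 5.03% in WT, and the Tmc7 end 41.5 ± 1.72% in KO and 48.2 ± 9.64% in WT (SD, n = 3 each), and in both the groups overlapped. The WT libraries of Tmc7 held 46.0%, 39.9% and 58.8%, so WT3 stood apart, and the log2 change was -0.23 with all libraries and -0.05 without WT3. That of Bid was -0.23 with all libraries and -0.10 without KO3. The Bid end shares all 628 bases with Bcl2l13 on the other strand, and the Spata1 end 169 of 302 bases with Ctbs. The Spata1 end averaged 41.8 ± 3.39% in KO and 35.3 ± 2.93% in WT (SD, n = 3 each; adjusted p = 0.542).

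A shift between 2 ends of a gene that both passed was seen in Nectin2 only. Of 469 genes with at least 2 ends tested, 7 had an end past the test, and in 1 of these, Nectin2, 2 ends passed. Of all members tested 0.600% passed, and of all parts 0.121%, and no test set the genes against these shares. In 262 of the 469 genes at least a pair of ends had changes of opposite sign, whatever their p. The ends of a gene share the same gene sum, so that count was not read as a result about them.

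The factors that cut and polyadenylate transcripts were compared at the gene level. Of 25 such genes tested, 1 rose and 1 fell with edgeR, against 3.37% of all genes, and the median log2 fold change of the list was -0.04. Ssu72, which encodes a phosphatase of RNA polymerase II, stood at 59.4, 58.7 and 60.1 CPM in KO, against 46.6, 44.4 and 48.1 CPM in WT. All KO libraries were higher (log2 fold change 0.30, SE 0.04, edgeR adjusted p = 0.0320). Pcf11, which encodes a cleavage factor subunit that promotes termination, stood at 72.3, 69.6 and 71.1 CPM in KO, against 83.0 to 90.01 CPM in WT (log2 fold change -0.36, SE 0.05, edgeR adjusted p = 0.0288). With a library left out, Pcf11 passed without WT3 only, with adjusted p from 0.0544 to 0.136 without KO1, KO2, KO3, WT1 or WT2, and Ssu72 did not pass in any of the 6 fits (0.0524 to 0.153). Of 13 U1 snRNP and elongation factors tested, Pcf11 passed and no other.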

How the data were processed

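Polyadenylated RNA of 3 KO and 3 WT libraries was sequenced by the authors. TopHat 1.4.1 is named in the submitters' processing notes together with the human build GRCh37, while the deposited tables name the mouse annotation NCBIM37.67. How reads were counted, and with which strand setting, is not given in the sources used here. For every exonic part the deposited tables hold a raw read count, the covered bases, the length and the covered fraction, which the authors' values show to be covered bases over length. Rows of aggregated genes were left out of usage. Parts are numbered as in the tables. Symbols were matched by identifier for 31300 of 35981 single genes, and GENCODE M21 (GRCm38) gave transcripts, coding ends and sequences by transcript identifier, for 5066 of the 5922 members; no coordinate was converted.

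Usage was tested with edgeR 4.0.16 in R 4.3.3 (filterByExpr, genes with at least 2 parts kept, log of the gene sum as offset, glmQLFit and glmQLFTest, all 6 libraries, no covariate). The fit was also run on simulated data, with an outcome that is not reported here. diffSpliceDGE recovered few changed parts in its simulation and was kept as an alternative. Genes were tested on their part sums with TMM. The threshold was a Benjamini-Hochberg adjusted p of 0.05. Counts of replicates differed far beyond sampling noise (chi-square per gene 71.2 to 206). The sum over a gene counts a read that spans parts more than once, and intervals cover counting error only. Members, gene lists and tests were chosen with earlier results of these data known. Named were members past the test with groups that do not overlap and a mean count of at least 50 in the higher group, up to 12 in each direction, other ends of their genes, up to 2 members of each list, and the 5 largest changes of share not past the test in genes with a mean sum of at least 1000. Pde4b and Fancc lie outside that rule and, like other parts named in a gene, were chosen after their values were seen. Alternatives were diffSpliceDGE with TMM and RLE, limma-voom (limma 3.58.1), DESeq2 1.42.0, 2 other denominators, 2 filters, parts with no overlap, a replicate block and leaving out each library. Figures were drawn with matplotlib 3.10.9.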

Additional observations from a re-analysis of the deposited data

How the results depend on the processing

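Against 20 members past the test, DESeq2 called 34, no filter on low counts 31 of 5103 and diffSpliceDGE 4, with TMM or RLE factors. With the parts present in every transcript as denominator 5 of 2052 passed, and the cause of these differences was not tested. Leaving out each library in turn gave 9 to 27 (10 without KO1, 9 without WT2 and 11 without WT3). Of the 20 themselves, 2 passed with diffSpliceDGE under either scaling, 9 with limma-voom and 8 to 18 with a library left out (10 without KO1, 8 without WT2, 10 without WT3). With the parts present in every transcript as denominator 11 of the 20 had a value, and 4 of these passed. None of the 20 changed direction under any alternative. Of the other ends named, 3 did, none of them past the test: Lsm4 (-0.103 to 0.00099 with a library left out, above 0 without KO2), Ndufab1 part 15 (-0.363 to 0.0515, above 0 without KO2) and Shisa3 part 3 (-0.0173 to 0.0176, below 0 without KO2 or WT3), the last also with diffSpliceDGE (-0.0051), limma-voom (-0.34) and its own reads taken out (-0.0083). The replicate block gave 32 members, with 445 of all parts past the test in place of 264, and 0 cleavage and polyadenylation factors in place of 2. Deviations of same-numbered libraries correlated at 0.107, -0.0601 and 0.158 for numbers 1, 2 and 3, so the numbers were not taken as pairs. Leaving out each library gave 0 to 1 of these factors. The ends of Iyd and Paqr3 passed when their own reads were taken out of the gene sum (log2 changes -0.46 and -0.41), and that of Qk with the block (0.15). How far the median count of 47.3 of internal ends limits their calls was not tested.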
